A study of Rattus norvegicus with 2 samples.

Results

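Arginine supply, arginase and polyamine synthesis are described here through 8 genes, chosen by name as routes that bring arginine to nitric oxide synthesis or compete with it for arginine: Slc7a1, Ass1, Asl, Arg1, Ddah1, Odc1, Amd1 and Oat. Every probe set that the platform annotation assigned to a single one of these symbols was used, which gave 14 probe sets for 8 of the 4736 genes named on the array. The RNA came from small mesenteric arteries of the first and second order, the resistance vessels of the gut, taken from rats. One group had prehepatic portal hypertension, produced by narrowing the portal vein with a partial ligature, and the control group had a sham operation. Each group was a single pool of total RNA from 20 rats read on 1 Affymetrix RG_U34A array, so a ratio compares 2 pools, differences between rats were not measured, and no p-value can be given. The sources used here do not give strain, sex, age or the time after operation.

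Arginine is the substrate of nitric oxide synthase, which oxidises it to citrulline while releasing nitric oxide, a dilator signal of the endothelium. Cells take arginine up through cationic amino acid transporters and can also rebuild it from citrulline through argininosuccinate synthase and lyase. Arginase withdraws arginine by cleaving it to urea and ornithine. Ornithine in turn is decarboxylated to putrescine, the first polyamine, or passed by ornithine aminotransferase towards proline and glutamate. Excess nitric oxide in the splanchnic arteries is a classical theme of portal hypertension research, and the comparison asked whether mRNAs of the routes around arginine differed between the pools.

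None of the 7 members with a value reached 1.5-fold, beside 3.13% of all genes on the higher side and 5.04% on the lower side. With so few members, a count of 0 is near that share. Amd1, the S-adenosylmethionine decarboxylase gene of polyamine synthesis, had the lowest gene value, with a signal 1.45-fold lower than in the sham pool. Odc1, the ornithine decarboxylase gene, Asl, the argininosuccinate lyase gene, and Ddah1, which encodes an enzyme that breaks down inhibitors of nitric oxide synthase, were lower by margins mostly within the scatter between probe sets of a gene. Arg1, the liver-type arginase gene, was at the same signal in both pools, Slc7a1, the main cationic amino acid transporter gene, was higher on a dim probe set, and the probe sets of Oat, the ornithine aminotransferase gene, went opposite ways. No level could be read for Ass1, the argininosuccinate synthase gene. Because RNA of whole vessel pools was measured, fewer cells of a type and less RNA per cell cannot be told apart.

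No log2 ratio was read for a probe set below a floor of 330.9 intensity units on both arrays. This floor is the 40th percentile of the non-control signals of the pair of arrays. The summed signals of cell type markers given below include probe sets under it. Of the 14 member probe sets, 10 lay above the floor in both pools and 4 below it in both, and 7 of the 10 were lower in portal hypertension and 3 higher. Each gene was summarised by the log2 ratio of portal hypertension over sham, taking the median of its probe sets that exceeded the floor on at least 1 array. On this scale 7 members had a value, 5 below 0 and 2 above it, with a median of -0.19 and a range from -0.54 to 0.35. Across all 3351 genes with a value the median was -0.02, the SD 0.34, and 53.2% were below 0. No member reached 1.5-fold in either direction (0 higher and 0 lower), while over all genes 3.13% were past 1.5-fold on the higher side and 5.04% on the lower side. Among single probe sets, 1 of the 10 measured ones passed 1.5-fold on the lower side and 0 on the higher side, against 5.38% and 3.1% of the 4960 probe sets above the floor on both arrays. The split over all genes depended on scaling, with 105 genes higher and 169 lower as reported, 152 and 139 after quantile normalization, 138 and 145 after removal of a loess trend, and 32 and 524 after scaling to the spike-in controls.

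**Figure D1:**
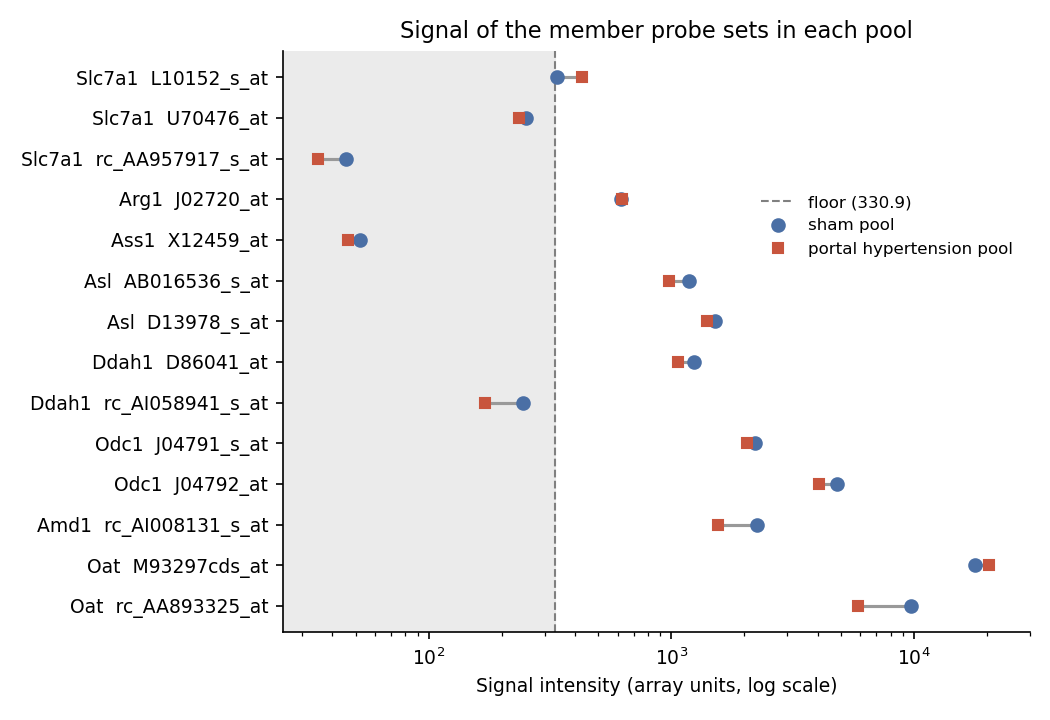
Signal intensity (array units, log axis) of each of the 14 member probe sets in the sham pool (circles) and the portal hypertension pool (squares); the dashed line and grey area mark the floor of 330.9 and the values below it. The 4 lowest rows by signal (2 of Slc7a1, 1 of Ass1 and 1 of Ddah1) lie wholly below the floor, and the widest separations among the brighter rows belong to Amd1 and to 1 of the probe sets of Oat.

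With no replicate arrays, the disagreement between probe sets of the same gene served as a scale for a ratio. Over 1801 probe sets of 789 genes, log2 ratios scattered around the mean of their gene with an SD of 0.30. The SD was 0.39 for mean signals up to 984, 0.29 from there to 3104, and 0.23 above. This scatter does not include variation between animals, operations or labellings. It does include probe sets named for the same sequence, such as M83107_at and M83107_g_at of Tagln, with log2 ratios of 0.17 and 0.16. Such pairs are not independent readings, so the SDs may be too small.

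**Figure D2:**
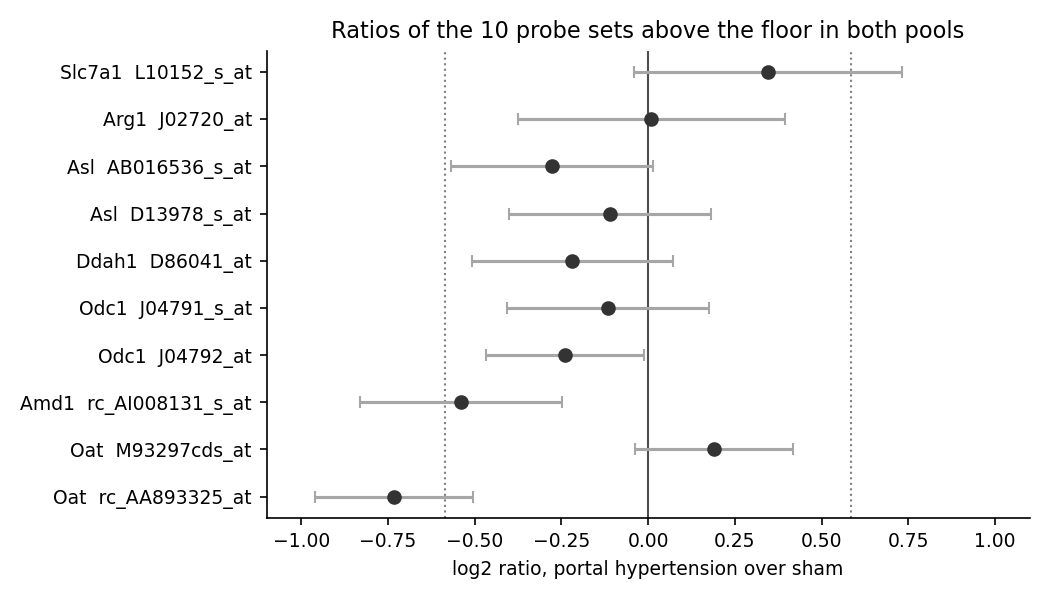
Log2 ratio of portal hypertension over sham for the 10 member probe sets above the floor in both pools; each bar spans 1 SD to either side, the scatter between probe sets of a gene at that level (0.39, 0.29 or 0.23), and dotted lines mark 1.5-fold. One probe set of Oat, at -0.73, lies beyond the dotted line, and Amd1, at -0.54, lies just inside it.

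Slc7a1 encodes CAT1, through which vascular cells take up arginine. Its probe set L10152_s_at read 337 for sham and 428.1 for portal hypertensive RNA, giving a log2 ratio of 0.35. The sham value stood just above the floor, and the ratio was smaller than the SD of 0.39 at that level. The other probe sets were dimmer and below the floor in both pools, at 250.5 and 234.1 for U70476_at and at 45.7 and 35 for rc_AA957917_s_at, each nominally lower in portal hypertension. When no floor was applied, the median over the 3 probe sets was -0.10, so the direction for Slc7a1 rested on the floor.

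Ass1 and Asl encode the enzymes that rebuild arginine from the citrulline left by nitric oxide synthase. The single Ass1 probe set gave 52.1 and 46.2 for sham and portal hypertensive RNA, both far below the floor, so no ratio is reported. Both Asl probe sets were lower in portal hypertension. AB016536_s_at had 1181 after sham operation and 974 in portal hypertension, giving a log2 ratio of -0.28, and D13978_s_at had 1509 and 1399, a ratio of -0.11. Both ratios were within the SD of 0.29 for their level, and the 2 probe sets lay 0.17 apart. The Asl value of -0.19 kept its sign in 8 of 8 alternative settings that gave one. Changing the floor, or keeping only probe sets above it on both arrays, left the value unchanged, so those settings could not test its sign.

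Arg1 encodes the cytosolic arginase, best known from the urea cycle of the liver and from activated macrophages. Its only probe set, J02720_at, had 621.9 for sham and 625.9 for portal hypertensive RNA, giving a log2 ratio of 0.01, the smallest difference among the measured members. This lay far inside the SD of 0.39 at that level, and it turned to -0.27 when the arrays were scaled to the spike-in controls. Arg2, the mitochondrial arginase gene, was below the floor on its probe set, with 51.1 and 53.8. Macrophage and myeloid markers went both ways. Of the 12 listed, 8 were on the array and 6 had a value, 4 above 0 and 2 below. Their summed signal was 48796 after sham operation and 59446 in portal hypertension, with Fcgr2b, an inhibitory Fc receptor gene, at 0.92 and Ptprc, the pan-leukocyte gene, at -0.48, the median of 3 probe sets of which 1 was higher, at 353.2 and 704. Most of the difference in the sum came from Ctss, a lysosomal protease gene, with 11699 and 16506, and Lyz2, a lysozyme gene, with 25530 and 29537, while Cd14, a co-receptor for endotoxin, had -0.14. Of 10 hepatocyte markers on the array 5 were below the floor, and their summed signal was 5003 and 4674, with Alb at 0.28 and Cps1 at -0.42 on the probe sets measured in both pools. The part of either cell type in the Arg1 signal was not tested.

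Ddah1 encodes an enzyme that hydrolyses asymmetric dimethylarginine, an endogenous inhibitor of nitric oxide synthase. On probe set D86041_at the signal was 1233 for sham and 1060 for portal hypertensive RNA, giving a log2 ratio of -0.22, within the SD of 0.29. The other probe set, rc_AI058941_s_at, had 245.3 and 169.6, lower in portal hypertension too but under the floor in both pools. With the floor at the 20th percentile, where both probe sets counted, the Ddah1 value was -0.38.

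Odc1 and Amd1 encode the decarboxylases that commit ornithine and S-adenosylmethionine to polyamine synthesis, both short-lived and tightly regulated proteins. Odc1 was lower in the portal hypertensive pool on both probe sets. J04792_at had 4813 after sham operation and 4074 in portal hypertension, giving a log2 ratio of -0.24, just beyond the SD of 0.23 at that level, and J04791_s_at had 2211 and 2041, a ratio of -0.12, within the SD of 0.29. The signals of the pools lay within 1.18-fold of each other on each. Amd1 had 1 probe set, rc_AI008131_s_at, with 2263 for sham and 1556 for portal hypertensive RNA, giving a log2 ratio of -0.54. That is 1.45-fold lower, outside the SD of 0.29, and 6.77% of the probe sets above the floor on both arrays had a ratio as low or lower. The Odc1 value of -0.18 stayed below 0 in 9 of 9 alternative settings, from -0.15 to -0.46. The Amd1 value did so in 8 of 8, from -0.51 to -0.82. Many of these settings could not move the values. Changing the floor, or keeping only probe sets above it on both arrays, left both unchanged. With 1 probe set for Amd1, the gene summary could not move it either, so only the scalings could change its value. They shifted the median of all genes by 0.03 (quantile), 0.02 (loess) and -0.26 (spike-in controls). Beside a ratio of -0.54 these shifts were small or downward, so the sign of Amd1 was hardly tested. The Amd1 probe set carries the suffix _s, which in Affymetrix naming marks probes that can match more than 1 transcript, as do 6 other member probe sets, and it was the sole source of the Amd1 value.

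Odc1 and Amd1 were lower on all 3 of their probe sets, but so were Asl on both and Ddah1 on its measured one. For Odc1 and Amd1 the sequences around the start sites are shown, from 250 bases before to 50 bases after the start. They are as given by RefSeq for the rat assembly GRCr8. The Odc1 window is chr6:46058415-46058714 on the plus strand and the Amd1 window chr20:45265933-45266232 on the minus strand, each written 5′ to 3′ along the gene. Capitals mark matches on either strand to the TATA box letters TATAA and to the GC box letters GGGCGG.
Odc1: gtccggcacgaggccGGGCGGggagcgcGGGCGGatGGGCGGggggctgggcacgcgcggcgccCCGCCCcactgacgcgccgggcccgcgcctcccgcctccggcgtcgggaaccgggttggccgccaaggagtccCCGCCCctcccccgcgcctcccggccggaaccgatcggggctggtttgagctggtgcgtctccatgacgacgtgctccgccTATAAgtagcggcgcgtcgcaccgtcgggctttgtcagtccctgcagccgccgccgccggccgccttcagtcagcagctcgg
Amd1: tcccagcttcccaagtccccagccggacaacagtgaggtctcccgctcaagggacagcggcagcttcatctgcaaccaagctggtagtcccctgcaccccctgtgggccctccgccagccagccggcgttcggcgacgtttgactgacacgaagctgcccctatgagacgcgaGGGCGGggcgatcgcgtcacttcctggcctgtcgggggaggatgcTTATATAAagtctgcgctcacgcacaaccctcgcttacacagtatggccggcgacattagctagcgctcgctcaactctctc

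Both windows hold a TATA box match at the customary distance from the start, with its first base at -32 in Odc1 and at -29 in Amd1, where the match on the other strand overlaps it to give the longer run in capitals. A match to TATAA on either strand was present in 26.2% of the 33469 windows of the same length in the RefSeq table. Odc1 holds 5 matches to GGGCGG and Amd1 holds 1, and 33.1% of all windows had at least 1. The letters TGACG, a motif of cyclic AMP response elements, occurred in both (2 matches in Odc1, 1 in Amd1) and in 21.2% of all windows, while CACGTG, the E-box bound by MYC and clock factors, occurred in neither and in 6.42% of all windows. The GC content was 77.3% for Odc1 and 62.7% for Amd1, against a median of 51.7%. These matches describe the letters, and the array holds no measurement of binding.

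Oat encodes the mitochondrial aminotransferase that leads ornithine away from polyamines towards proline and glutamate, and its probe sets disagreed. M93297cds_at, built on the coding sequence, had 17801 after sham operation and 20309 in portal hypertension, giving a log2 ratio of 0.19. Probe set rc_AA893325_at, built on an expressed sequence tag, had 9720 and 5849, a ratio of -0.73 or 1.66-fold lower, which only 2.70% of measured probe sets matched or passed. The first was inside the SD of 0.23 for bright probe sets and the second more than that SD away from 0, and they lay 0.92 apart. Of 613 genes with exactly 2 measured probe sets, 19, Oat included, had a gap at least as wide. Of the 150 among the 613 with both probe sets above a mean signal of 3104, 1 did, which was Oat itself. The 613 include genes whose probe sets are named for the same sequence, such as Tagln, while those of Oat are named for different ones. Such genes can make a wide gap look rarer than it is among probe sets of different sequences. Opposite directions alone were common, in 35.6% of the 613 genes. The Oat value of -0.27 is the midpoint of these opposed ratios and describes neither, and with the brighter probe set alone it was 0.19. Which transcript portions the probe sets read is not given in the sources used here, so the direction for Oat was not settled.

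The wider pathway was followed through 5 lists holding 73 genes, of which 38 were named on the array and 30 had a value. The 23 genes with a value that were not members had a median of -0.04, with 14 below 0 and 9 above, and again 0 passed 1.5-fold on the higher side and 0 on the lower side, beside the same 3.13% and 5.04% of all genes. Their extremes were Slc7a5 at -0.55 and Ahcy at 0.58, both short of 1.5-fold.

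Among 19 genes of polyamine synthesis and turnover 8 were named on the array and 7 had a value, with a median of -0.20. The count below 0 was 6 of 7, with Odc1 and Amd1 among them, beside 53.2% of all genes below 0. It was also 6 of 7 under each of the other scalings, but with scaling to the spike-in controls 84.8% of all genes were below 0. The count was 5 of 7 with the brightest probe set of each gene and 1 of 2 when suffixed probe sets were left out. Azin1, the antizyme inhibitor that protects ornithine decarboxylase from breakdown, had 7386 and 7392 for sham and portal hypertensive RNA on probe set D89983_at and 2074 and 1361 on rc_AI043631_s_at, so that 1 probe set was even and the other lower. Oaz2, an antizyme gene whose product targets ornithine decarboxylase for degradation, had 47306 and 38520, giving a log2 ratio of -0.30, and its relative Oaz1 had 12865 and 12568, a ratio of -0.03. Thus the inhibitor and both antizymes were also level with or below the sham pool. Mat2a, which makes S-adenosylmethionine outside the liver, had a log2 ratio of -0.20. Ahcy, which clears the S-adenosylhomocysteine left by methylation, went the other way, with 1233 for sham and 1843 for portal hypertensive RNA. Its log2 ratio of 0.58 lay at the edge of the threshold and passed it after quantile normalization, at 0.62, and after removal of the loess trend, at 0.61.

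Among amino acid transporters 7 of 18 listed genes were named on the array and 5 had a value, 2 above 0 and 3 below. Slc3a2, the heavy chain shared by several exchangers including those for cationic amino acids, was higher on both probe sets, with 4541 and 5279 on AB015433_s_at and 2000 and 2626 on X89225cds_s_at, a gene value of 0.31. Slc7a5, a light chain that pairs with it to carry large neutral amino acids, was lower, with 1428 and 974.9. The partners of this exchanger thus had ratios of opposite sign. Slc3a1, the heavy chain of the renal cystine and dibasic amino acid exchanger, had a ratio of -0.14. The other cationic transporter genes gave little, since Slc7a2 was below the floor in both pools, at 53.6 and 156.2, and Slc7a3 was above it in the sham pool alone, at 371.2 and 272.7.

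Of 12 genes of arginine, citrulline, urea and creatine metabolism 10 were named on the array and 7 had a value, 4 above 0 and 3 below, with a median of 0.01. After quantile normalization 5 of 7 lay above 0 and after removal of the loess trend 4 of 7. With scaling to the spike-in controls 8 had a value and 0 of them lay above 0, but 84.8% of all genes were then below 0. That turn is therefore not particular to this list. Cps1, the first enzyme of the urea cycle, had 515.5 after sham operation and 385.2 in portal hypertension on its measured probe set, which gave a log2 ratio of -0.42, and was below the floor on the other 2. Otc, the ornithine transcarbamylase gene, was below the floor on both probe sets. The creatine branch, which also consumes arginine, had Gatm at 369.9 and 360.8, while the creatine kinase genes Ckb and Ckm had ratios of 0.22 and 0.25. In the methylarginine list 3 of 5 genes on the array had a value, with Prmt3, an arginine methyltransferase gene, at -0.24 and Padi2, a peptidylarginine deiminase gene, at 0.05 beside Ddah1. In the ornithine, proline and glutamate list all 8 genes named on the array had a value, 3 above 0 and 5 below, with a median of -0.06. With scaling to the spike-in controls 0 of the 8 lay above 0, with P4ha1, Got1 and Asns turning, and Padi2 turned as well, beside the same 84.8% of all genes below 0. P4ha1, a collagen prolyl hydroxylase subunit, had 0.24, Gls2, a glutaminase gene, -0.23 and Got2, the mitochondrial aspartate aminotransferase gene, -0.14.

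**Figure D3:**
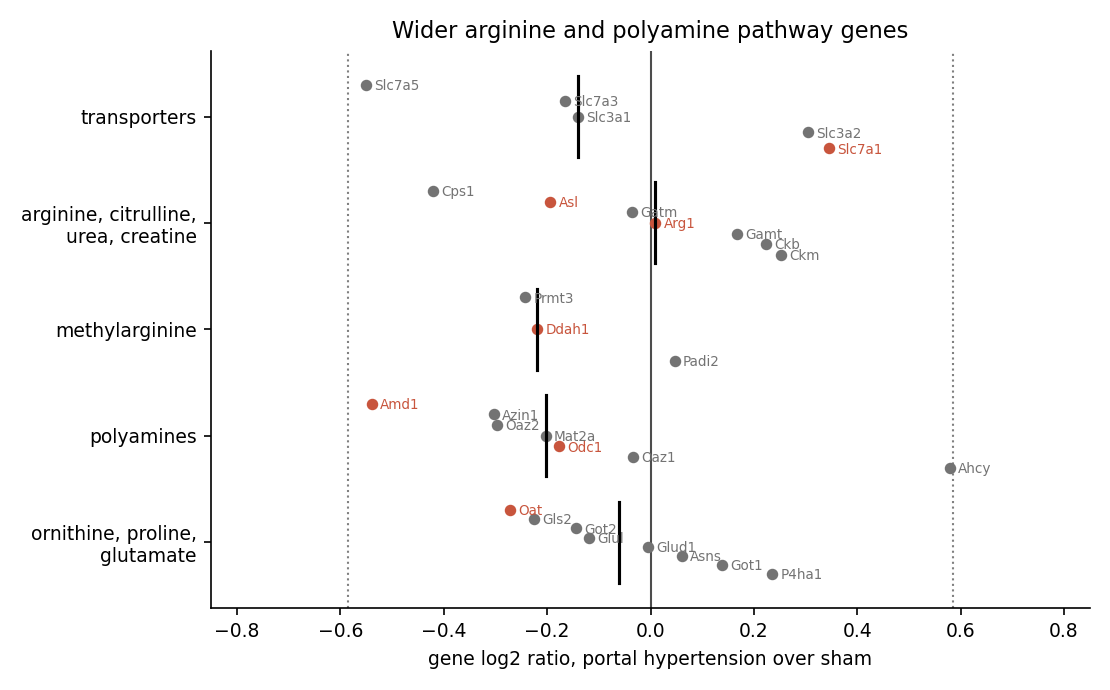
Gene log2 ratio (portal hypertension over sham) of the 30 genes with a value in the 5 pathway lists; coloured points are members, grey points other genes, short black lines the list medians and dotted lines 1.5-fold. The points lie inside the dotted lines, with Slc7a5 at -0.55, Amd1 at -0.54 and Ahcy at 0.58 nearest to them. The polyamine list has 6 of its 7 points below 0, beside 53.2% of all genes.

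The enzymes that these routes supply were themselves uneven. Nos3, the endothelial nitric oxide synthase gene, had log2 ratios of -0.78, -1.20 and 0.25 on the 3 of its 6 probe sets above the floor, Nos2, the inducible one, -0.14 and 0.43 on 2 of 4, and the 3 probe sets of Nos1 were below the floor in both pools.

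Array handling and the cell types in the pools were described beside these ratios. Fluidics module 2 and 17 µg of labelled cRNA were recorded for the sham array, and module 1 and 12.5 µg for the portal hypertensive array, the amounts with a question mark, so module, amount and operation cannot be told apart. The spike-in controls had a mean log2 ratio of 0.28 (SD 0.28, 9 probe sets), and scaling the arrays to them moved the median of all genes by -0.26. After that scaling the median of the members lay 0.19 below that of all genes, compared with 0.17 below as reported. Smooth muscle markers, which define this tissue, were measured for 7 of 7 genes on the array, with a summed signal of 543343 for sham and 520591 for portal hypertensive RNA and values from -0.68 for Kcnmb1 to 0.17 for Tagln. Endothelial markers had a value for 8 of 11 genes and summed to 28762 and 26952, from -1.13 for Icam2 to 0.65 for Aqp1. Among other cells of the vessel wall and its surround, the summed ratio of portal hypertension over sham was 1.38 for adipocyte markers. The largest single part of the difference in that sum came from Scd, a fatty acid desaturase gene, with 11225 and 29482 on its bright probe set, a log2 ratio of 1.39. Of the 7 adipocyte genes with a value 6 were above 0, and only Lep, the leptin gene, was below it, at -0.21. The summed ratio was 1.67 for mast cell markers, carried by the protease genes Cma1, at 1.20, and Cpa3, at 0.82, while Tpsb2 and Tpsab1, which encode tryptases, were at -0.37 and 0.10. It was 1.09 for fibroblast markers, from -0.17 for Lum to 0.58 for Thy1, and 1.06 for the 2 neutrophil genes on the array, S100a8 at 0.23 and S100a9 at -0.0016. For tissues in which Ass1, Oat or Arg1 are abundant, the ratio was 0.93 for hepatocyte markers and 0.90 for intestinal epithelium (from -0.50 for Muc2 to -0.15 for Alpi). It was 1.01 for kidney tubule (from -0.11 for Slc34a1 to 0.06 for Lrp2, on probe sets measured in both pools) and 0.96 for pancreas, with Pnlip at -0.14. Of these genes 5 of 8 intestinal, 2 of 5 kidney and 5 of 6 pancreas genes were below the floor. The sums include probe sets below the floor. Only 4 of 22 hepatocyte, 4 of 14 intestinal, 4 of 11 kidney and 1 of 7 pancreas probe sets were above it on both arrays. The part of these cells in the member ratios was not tested.

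**Figure D4:**
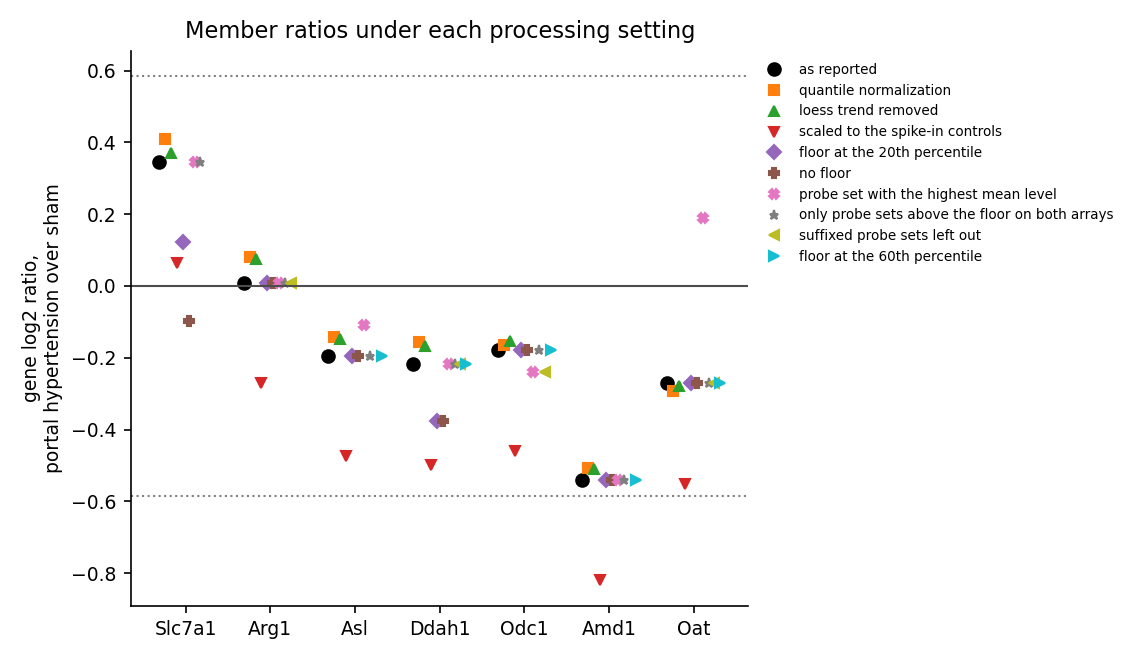
Gene log2 ratio of the 7 members with a value as reported (black circles) and under each of 9 alternative settings (coloured markers); dotted lines mark 1.5-fold. Asl, Ddah1, Odc1 and Amd1 stay below 0 in each setting that gives them a value, though changing the floor leaves Asl, Odc1 and Amd1 unchanged. Slc7a1, Arg1 and Oat each cross 0 in 1 setting. Amd1 passes 1.5-fold only with scaling to the spike-in controls, at -0.82, where 524 of all 3366 genes were at least 1.5-fold lower.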

How the data were processed

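The authors deposited linear signal intensities, 1 for each probe set on each array, and the software, scaling and background correction behind them are nowhere given in the sources used here. The mean of each array after trimming 2% of the values at either end was 2504, so the values were used without further scaling. The platform annotation named the probe sets: of 8740 without controls, 7006 had 1 gene symbol, 308 several and 1426 none. The gene IDs of the 8 members matched their symbols in the RefSeq table of GRCr8, and 7 of the members had a promoter there. The log2 ratio of portal hypertension over sham was taken after values below the floor were set to it, which narrows the ratios of dim probe sets. Calculations used Python 3.11.15, pandas 2.3.3 and statsmodels 0.14.6, and were tested on simulated data. No statistical test was made. The number of arrays limits the precision, and array signals give no order of level between genes.

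The members and lists were chosen with earlier results of these data known. Named were every member, the list genes at least 1.5-fold apart, up to 4 genes per list with the largest ratios among those above the floor in both pools, the highest and lowest gene of each marker list among those above the floor in both pools, and Nos1, Nos2 and Nos3. Arg2, Slc7a2, Slc7a3, Otc, Gatm, Oaz1, Mat2a, Ctss, Lyz2, Cd14, Cpa3, Tpsab1, Got1 and Asns were named after their values were seen, and the promoter motifs were chosen after the ratios were known. Alternatives covered scaling (quantile, loess, spike-in controls), the floor (20th or 60th percentile, none), the gene summary (brightest probe set, or only those above the floor on both arrays) and probe sets with suffixes for shared or reduced probes left out.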

Additional observations from a re-analysis of the deposited data

How the results depend on the processing

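The median of the members stayed below 0 in all 9 alternatives. It was unchanged, at -0.19, with the 20th percentile floor and with only probe sets above the floor on both arrays, so those settings could not test it. With spike-in scaling the median of all genes was itself -0.29. In the other alternatives the median of all genes lay between -0.02 and 0.01. The number of members at least 1.5-fold apart was 0 except for 1 (Amd1) with scaling to the spike-in controls. The number below 0, 5 as reported, was 3 of 4 when suffixed probe sets were left out, since Slc7a1, Asl and Amd1 then had no value. It was 7 of 8 without a floor, 6 of 7 with spike-in scaling, 5 of 5 with a 60th percentile floor and 4 of 7 with the brightest probe set. Of all genes, 84.8% were below 0 with spike-in scaling and 51.6% with suffixed probe sets left out. The share was 52.5% without a floor, 52.2% with the 60th percentile floor and 51.5% with the brightest probe set. Slc7a1 turned to -0.10 without a floor, Arg1 to -0.27 with spike-in scaling and Oat to 0.19 with its brightest probe set. In the wider lists, counts of genes at least 1.5-fold apart, 0 as reported, moved as follows. With spike-in scaling, transporters had 1 (Slc7a5), arginine and urea genes 1 (Cps1) and polyamine genes 1 (Amd1). Polyamine genes also had 1 after quantile normalization and 1 after the loess (Ahcy), and, through Mat1a, 1 at the 20th percentile floor and 1 without a floor. Arginine and urea genes had, through Otc, 1 at the 20th percentile floor and 1 without a floor. Transporters had 2 without a floor (Slc6a6 and Slc7a2). The Mat1a, Otc, Slc6a6 and Slc7a2 values came from probe sets below the floor used here. Such ratios became more frequent over all genes too. At the 20th percentile floor, 300 of 4193 genes were at least 1.5-fold higher and 334 lower. Without a floor, 455 of 4736 were higher and 487 lower, while 105 and 169 of 3351 were as reported. These list counts therefore do not set the lists apart from other genes. With the floor at the 60th percentile, 889.84, Slc7a1 and Arg1 had no value. Slc7a1 rests on a dim signal, and Ass1, Arg2, Slc7a2 and Otc lay below the floor in both pools, so no ratio was read for them. No paired analysis was possible because each group was 1 array.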
